A study of Homo sapiens with 6 samples.

Results

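Immediate early response genes are transcribed within minutes of a growth factor or stress signal, with no need for new protein synthesis. The 10 genes described here are EGR1, EGR3, FOS, FOSB, FOSL1, JUN, JUNB, DUSP1, IER2 and IER3, taken by symbol from the 58870 genes of the table. They were measured by total RNA sequencing in 6 libraries of HEK-293T, an immortalized line of human embryonic kidney origin that carries the SV40 large T antigen. The WT group (Thumpd+/+) is the wild-type line and holds 3 libraries. The THUMPD1 KO group (Thumpd-/-) also holds 3 libraries, of cells in which CRISPR-Cas9 had been aimed at the coding sequence of THUMPD1 and which had passed through single-cell sorting. How many clones the KO libraries come from is not given in the sources used here, so an effect of the knockout and a trait of the sorted cells cannot be told apart. THUMPD1 is the adaptor protein that lets NAT10 acetylate cytidines in tRNA. Both groups grew in DMEM with fetal bovine serum, with no stimulus named, and were scraped or trypsinized off the plate near confluence. Which of these 2 ways served which library is not given in the sources used here, nor is it said whether the 3 libraries of a group came from separate cultures, so the p-values measure only the spread between these libraries.

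Library totals ran from 32225646 to 44099898 expected counts. At these totals, 3 counts correspond to between 0.068 and 0.0931 CPM (counts per 1000000 counts of the library), and intervals on counts cover counting error only. The deleted gene was checked first. THUMPD1 stood at 77.3, 84.6 and 80.8 CPM in the WT libraries and at 10.2, 12.0 and 10.95 CPM in the KO libraries, a log2 fold change of -2.87 (SE 0.0845, limma-voom adjusted p = 3.17e-08). A gene was tested when 3 or more of the 6 libraries reached 1 CPM. Of the 15088 tested genes, 4025 (26.7%) passed an adjusted p of 0.05, 2066 (13.7%) higher and 1959 (13.0%) lower in KO. All 6 markers of the line were detected, of which the neurofilament genes NEFL (0.31, limma-voom adjusted p = 0.00443) and NEFM (-2.75, 1.30e-05), the kidney factor PAX2 (0.64, 0.0231, named after its values were seen) and the keratin KRT18 (-0.53, 8.53e-04) differed in log2 fold change, and VIM and KRT8 did not pass. Of 14 markers of other kidney, immune, fibroblast and endothelial cells, 4 (UMOD, SLC34A1 and COL1A2 among them) had no count in any library and 12, these included, averaged below 1 CPM. The summed level of the 14 was 14.9 to 19.4 CPM in WT and 11.6 to 16.0 CPM in KO, most of it COL1A1, and its part in the results was not tested. In bulk RNA, fewer cells expressing a gene and less RNA per cell cannot be told apart.

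The 10 proteins act in a short relay. Growth factor receptors signal through RAS to the ERK kinases, and stress signals through JNK and p38, and these kinases act on factors already bound to the immediate early promoters, above all SRF with its ELK partners at CArG boxes and CREB at cAMP response elements. EGR1 and EGR3 are zinc finger transcription factors. The FOS proteins pair with JUN proteins to form AP-1, which binds the TGANTCA element, while DUSP1 removes the phosphates from p38, JNK and ERK and so closes the loop. The mRNAs are short-lived, in large part through AU-rich elements that recruit decay factors.

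The promoters are shown because several of them hold elements for which the immediate early response is known. Whether these elements bear on the differences between the groups was not tested. RefSeq promoters (GRCh38.p14) were found for 7 of the 10 genes, and EGR3, FOSL1 and IER3 had no entry. The 180 bases before the start are printed 5′ to 3′ along the gene for EGR1, DUSP1, FOS, FOSB and JUNB, and for JUN, whose transcript was lower in KO. Capitals mark the CArG box, the cAMP response element core TGACGT, which reads ACGTCA where it lies on the other strand, and the TATA box as TATAAA on the gene's strand.
EGR1: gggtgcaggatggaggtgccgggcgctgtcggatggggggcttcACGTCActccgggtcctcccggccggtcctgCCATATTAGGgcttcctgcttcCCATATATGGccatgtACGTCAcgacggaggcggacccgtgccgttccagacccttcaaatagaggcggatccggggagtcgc
DUSP1: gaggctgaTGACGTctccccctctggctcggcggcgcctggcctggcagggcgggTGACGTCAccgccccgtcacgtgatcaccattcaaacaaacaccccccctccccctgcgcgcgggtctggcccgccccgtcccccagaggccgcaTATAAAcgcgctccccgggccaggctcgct
FOS: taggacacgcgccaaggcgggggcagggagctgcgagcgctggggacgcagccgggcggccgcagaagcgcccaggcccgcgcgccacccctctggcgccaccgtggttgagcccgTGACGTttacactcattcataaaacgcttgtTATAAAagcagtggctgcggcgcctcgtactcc
FOSB: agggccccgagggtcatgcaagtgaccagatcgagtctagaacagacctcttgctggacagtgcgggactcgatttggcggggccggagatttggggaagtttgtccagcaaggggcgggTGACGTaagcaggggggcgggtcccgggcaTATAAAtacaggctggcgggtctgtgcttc
JUNB: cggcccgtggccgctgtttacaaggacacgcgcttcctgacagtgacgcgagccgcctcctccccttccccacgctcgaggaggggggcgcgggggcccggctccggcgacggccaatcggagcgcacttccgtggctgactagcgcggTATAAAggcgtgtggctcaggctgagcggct
JUN: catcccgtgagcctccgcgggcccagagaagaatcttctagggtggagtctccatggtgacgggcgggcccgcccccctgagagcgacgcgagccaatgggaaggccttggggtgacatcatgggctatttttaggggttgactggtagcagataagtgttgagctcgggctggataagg

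The EGR1 stretch is chr5:138465299-138465478 on the plus strand. The DUSP1 stretch is chr5:172771196-172771375 on the minus strand. The FOS stretch is chr14:75278648-75278827 on the plus strand. The FOSB stretch is chr19:45467816-45467995 on the plus strand. The JUNB stretch is chr19:12791306-12791485 on the plus strand. The JUN stretch is chr1:58784048-58784227 on the minus strand. Each window of 300 bases held the 250 before the start and the 50 after it, and elements outside it were not searched. Within its window EGR1 held a pair of CArG boxes whose first bases lay 105 and 83 bases upstream. A CArG box was found in 1.29% of 35116 RefSeq promoters searched on both strands. TGACGT, present in 7.98% of those promoters on either strand, lay 136 and 67 bases upstream of EGR1, 64 bases upstream of FOS and 60 bases upstream of FOSB. DUSP1 carried it 172 bases upstream and again, as the palindrome TGACGTCA, 125 bases upstream. TATAAA lay 30 to 33 bases upstream of DUSP1, FOS, FOSB and JUNB and was present in 7.33% of promoters. The AP-1 element TGANTCA was in 7.71% of windows and in those of 0 members. The EGR element GCGNGGGCG was in 9.43% of windows and, among the members, in that of EGR1, 198 bases upstream and outside the stretch printed. These shares are over all RefSeq promoters, whether or not the gene was tested here. Of 10872 tested genes with a RefSeq promoter, 163 held a CArG box, 1561 TGACGT, 578 TATAAA, 713 TGANTCA and 2174 GCGNGGGCG. The windows of JUN and IER2 held no match to any of these letters, which says nothing of factors that bind other sequences or of elements outside the windows.

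EGR1, FOS, JUNB and DUSP1 were higher in THUMPD1 KO cells and JUN was lower, so that 5 of the 8 tested members passed, 4 higher against a background of 13.7% and 1 lower against 13.0%. FOSB, IER2 and IER3 did not pass. The counts and the median given here include FOS, which reached 1 CPM in its 3 KO libraries but, among WT, in replicate 3 alone. With no CPM filter the limma-voom adjusted p of FOS was 0.0988. EGR3 and FOSL1 missed the filter, since EGR3 reached 1 CPM in 2 of the KO libraries and in none of the WT libraries, and FOSL1 in none of the 6. The median log2 fold change of the 8 tested members was 0.41, against 0.016 over all tested genes. CPM in the 3 KO libraries all lay above those of the 3 WT libraries for 7 of the 10 members, 5 of them among the 8 tested, where 24.5% of tested genes behaved this way. A KO level wholly below WT was seen in 0 members and in 17.6% of tested genes. With edgeR's quasi-likelihood test 6 members were called, where 25.7% of tested genes were, and with the replicate block 6 were (5 higher and 1 lower), where 35.1% of tested genes were called and 18.4% were higher. Without WT replicate 1, KO replicate 2 or KO replicate 3 the count fell to 2, which were EGR1 and DUSP1, where 28.1%, 17.65% and 18.6% of tested genes were called, so that 2 of 8 was near the background of those fits. It was 3 without WT replicate 3 and 3 without the replicate 1 libraries of both groups, where 18.1% and 32.4% of tested genes were called.

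**Figure D1:**
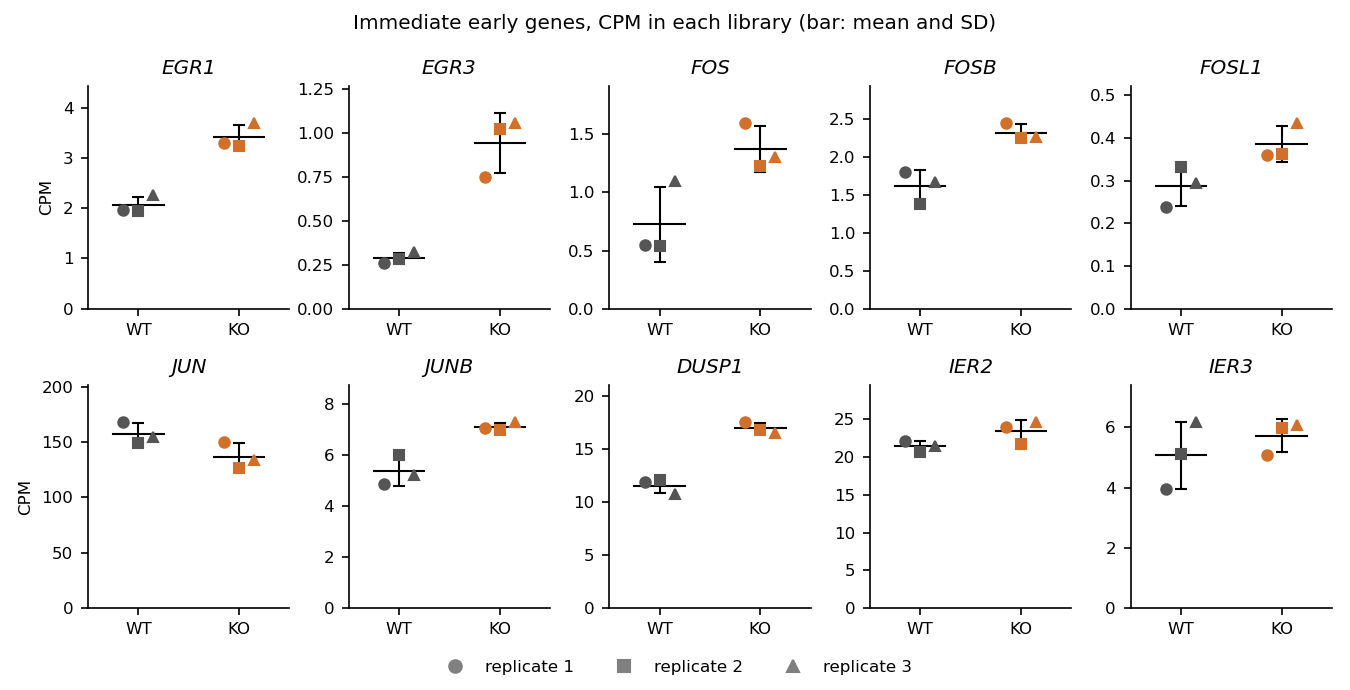
CPM of each of the 10 genes (vertical axes, linear from 0, one scale per gene) in the WT and THUMPD1 KO libraries, with symbols for replicates 1 to 3 and a bar for the mean and SD of 3 libraries. The groups are apart for EGR1, EGR3, FOS, FOSB, FOSL1, JUNB and DUSP1 and overlap for JUN, IER2 and IER3.

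EGR1, the zinc finger factor most often used as a readout of ERK signalling, was low in this line and higher in KO. It was measured at 1.97, 1.94 and 2.25 CPM in WT and at 3.29, 3.24 and 3.69 CPM in KO. The groups were well apart, with 76 to 84 counts in WT and 119 to 143 in KO. Means were 2.05 ± 0.173 and 3.41 ± 0.246 CPM (SD, n = 3 each), a ratio of 1.66, and the log2 fold change was 0.65 (SE 0.147, 95% interval 0.33 to 0.98, limma-voom adjusted p = 0.00788). It passed in all 17 alternative fits. EGR3, a paralog of EGR1 that it can itself induce, was present at 0.261, 0.281 and 0.322 CPM in WT and at 0.746, 1.02 and 1.06 CPM in KO. These are 11 to 12 counts against 29 to 45, and the exact Poisson interval of the lowest KO library (19.4 to 41.6 counts) slightly overlaps that of the highest WT library (6.20 to 21.0 counts). In the fit with no CPM filter, where 4.96% of 31730 genes were called higher, the log2 fold change of EGR3 was 1.53 (SE 0.291, interval 0.88 to 2.18, limma-voom adjusted p = 0.0105), and EGR1, FOS and JUNB had adjusted p of 0.0239, 0.0988 and 0.0795. Of the other EGR genes, named after their values were seen, EGR2 was at 0.190, 0.179 and 0.268 CPM in WT and 0.515, 0.635 and 0.434 CPM in KO (log2 fold change 1.17, adjusted p = 0.0545 in the same fit). EGR4 did not exceed 0.0537 CPM in any library.

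FOS, the founding member of its family, was expressed at a low level, with 21 to 62 counts per library. Its levels were 0.546, 0.536 and 1.10 CPM in WT and 1.596, 1.22 and 1.30 CPM in KO. All KO libraries were above all WT libraries, but WT replicate 3 (41 counts, exact Poisson interval 29.4 to 55.6) and KO replicate 3 (42 counts, 30.3 to 56.8) differed by less than their counting error. The log2 fold change was 0.90 (SE 0.286, interval 0.27 to 1.52, limma-voom adjusted p = 0.0396), and the KO to WT ratios of the same-numbered libraries were 1.55, 1.19 and 0.24 on the log2 scale. FOS entered the test because its 3 KO libraries reached 1 CPM, as did WT replicate 3, and it failed in 8 of 16 alternative fits, with an adjusted p of up to 0.191. FOSB, which forms the same pairs, was at 1.80, 1.38 and 1.66 CPM in WT and 2.44, 2.24 and 2.27 CPM in KO. The groups did not overlap. Its log2 fold change of 0.43 (SE 0.148, interval 0.11 to 0.76) had a limma-voom adjusted p of 0.0511, and the replicate block gave 0.0471, edgeR 0.0395 and DESeq2 0.108. FOSL1, a family member tied to later and more sustained ERK signalling, was at 0.237, 0.332 and 0.295 CPM in WT and 0.360, 0.363 and 0.434 CPM in KO, between 10 and 16 counts per library. With no CPM filter its log2 fold change was 0.29 with an interval of -0.40 to 0.99 (adjusted p = 0.617), so no difference was detectable at this depth.

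JUN, the main partner of the FOS proteins, was by far the most abundant of the 10 and the single member that fell. It stood at 168, 149 and 155 CPM in WT and at 150.1, 126 and 134 CPM in KO. The ranges overlap, since KO replicate 1 was above WT replicate 2, while KO was lower within each same-numbered pair. The log2 fold change was -0.23 (SE 0.0667, interval -0.38 to -0.087, limma-voom adjusted p = 0.0245), and it was lost in 5 of 17 alternative fits, with an adjusted p of 0.106 without KO replicate 2 and 0.0901 without KO replicate 3. JUNB, which can replace JUN in AP-1 and is the weaker activator in many settings, went the other way. It was at 4.87, 6.03 and 5.23 CPM in WT and 7.08, 7.01 and 7.29 CPM in KO. The KO libraries were tightly grouped above every WT library. Its log2 fold change was 0.38 (SE 0.117, interval 0.12 to 0.64, limma-voom adjusted p = 0.0342), and the call was lost in 6 of 17 alternative fits, with the adjusted p reaching 0.1 without KO replicate 3.

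DUSP1, the nuclear phosphatase that switches off MAP kinases, gave the smallest adjusted p of the 10. It was at 11.8, 12.0 and 10.7 CPM in WT and at 17.5, 16.7 and 16.5 CPM in KO. No library strayed from its group, with 400 to 498 counts in WT and 531 to 738 in KO. Means were 11.5 ± 0.696 and 16.9 ± 0.517 CPM (SD, n = 3 each), a ratio of 1.47, and the log2 fold change was 0.56 (SE 0.0712, interval 0.41 to 0.72, limma-voom adjusted p = 3.01e-04). It passed in all 17 alternative fits.

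IER2, a small nuclear protein of the immediate early class, was at 22.1, 20.7 and 21.5 CPM in WT and 24.0, 21.8 and 24.6 CPM in KO. KO replicate 2 lay inside the WT range. The log2 fold change of 0.13 (SE 0.0622, interval -0.0082 to 0.27) had a limma-voom adjusted p of 0.15, and it became 0.0156 once trends with GC content and length were removed. IER3, which is linked to survival signalling, was at 3.94, 5.11 and 6.17 CPM in WT and 5.10, 5.99 and 6.08 CPM in KO. The WT libraries alone spanned more than the distance between the group means, and the log2 fold change was 0.16 (SE 0.181, interval -0.24 to 0.56, limma-voom adjusted p = 0.54). Without WT replicate 1 it was -0.062.

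**Figure D2:**
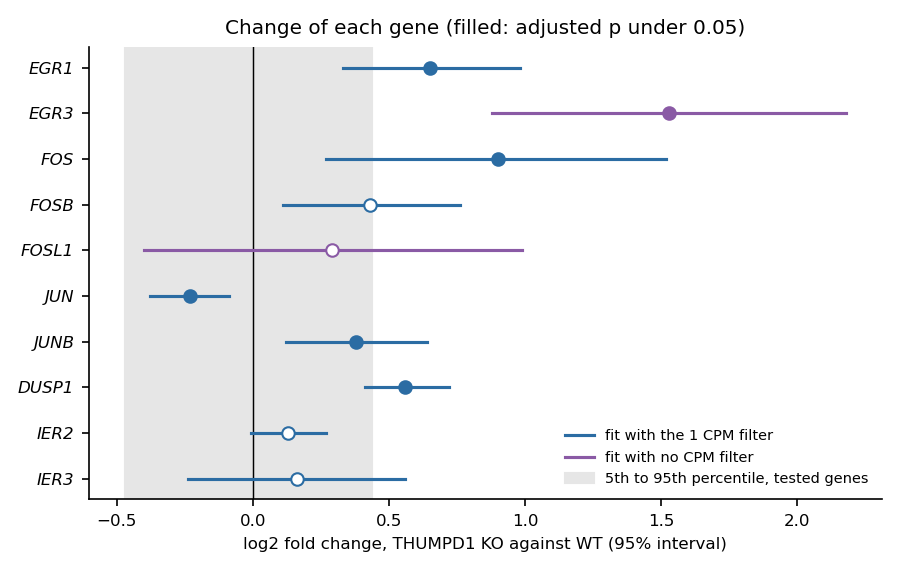
Log2 fold change of THUMPD1 KO against WT (horizontal axis) with its 95% interval for each gene (rows), filled where the adjusted p was under 0.05. EGR1, FOS and DUSP1 lie to the right of the grey band, which holds the 5th to 95th percentile of the 15088 tested genes (-0.47 to 0.44), JUN alone lies left of 0, and EGR3 and FOSL1 come from the fit with no CPM filter, to which the band does not apply.

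Counts divided by the length of the canonical transcript allow levels of different genes to be set side by side. In WT the order, in mean CPM per kb, was JUN (48.3), IER2 (10.2), DUSP1 (5.73), IER3 (4.10), JUNB (2.94), EGR1 (0.655), FOSB (0.428), FOS (0.346), FOSL1 (0.169) and EGR3 (0.0638). Neighbours in that order were apart in every library except IER3 and JUNB, and FOSB and FOS, whose WT ranges overlapped. In KO, FOSB and FOS again overlapped, and so did FOSL1 and EGR3, since EGR3 was at 0.208 ± 0.0375 CPM per kb beside 0.227 ± 0.0247 for FOSL1 (SD, n = 3 each). On the scale of CPM, JUN was more abundant than 91.3% of tested genes and FOS more abundant than 1.05%.

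Since JUN was lower and several of its partners were higher, the makeup of the AP-1 transcripts was also compared. Of the CPM per kb summed over JUN, JUNB, JUND, FOS, FOSB, FOSL1 and FOSL2, JUN took 65.9%, 68.2% and 66.5% in WT and 64.0%, 65.8% and 64.7% in KO. JUNB took 3.40%, 4.91% and 3.995% in WT and 5.37%, 6.49% and 6.27% in KO. Per JUN transcript, JUNB was at 6.12 ± 1.02% in WT and 9.32 ± 0.808% in KO, and FOS and FOSB together were at 1.603 ± 0.368% and 3.02 ± 0.0438% (SD, n = 3 each). Both ratios were higher in every KO library than in any WT library. They were formed after the member values were seen and restate them. JUND, the JUN protein least tied to stimulation, made up 26.3 ± 2.13% in WT and 25.1 ± 1.77% in KO, and FOSL2 1.43 ± 0.145% and 1.74 ± 0.281% (SD, n = 3 each), both with overlapping ranges. These shares are linked by their common sum and were not tested.

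**Figure D3:**
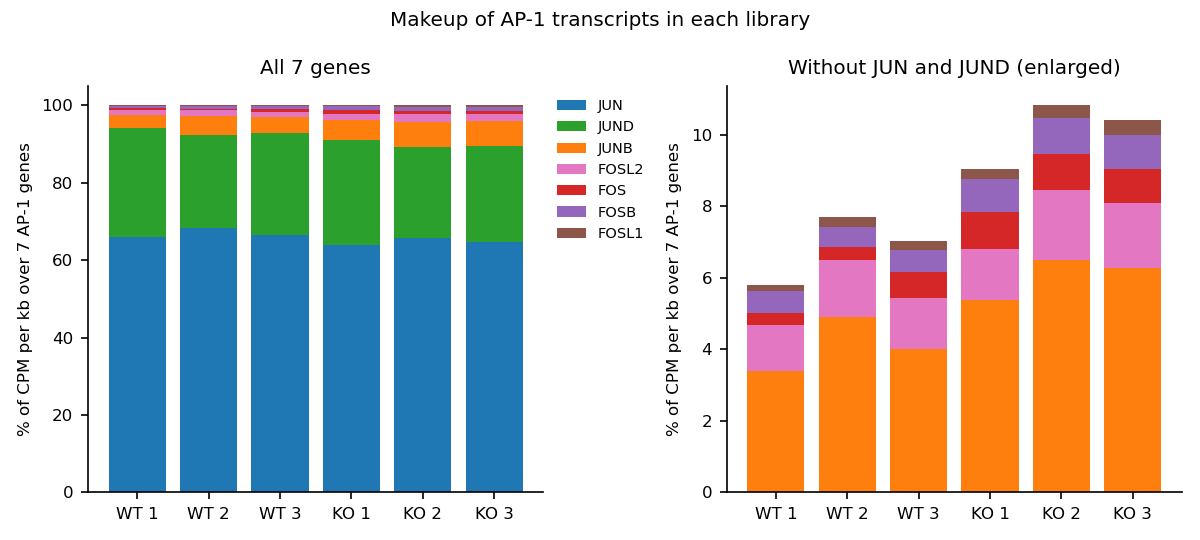
Share of each AP-1 gene (stacked bars, % of the CPM per kb summed over 7 genes) in each library, with the genes other than JUN and JUND enlarged at right. JUNB, FOS, FOSB and FOSL1 each take a larger share in all KO libraries than in any WT library, while JUN falls from 66.9% to 64.8% on average. For FOSL1 the nearest libraries are WT replicate 2 at 0.291% and KO replicate 1 at 0.294%.

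All 10 genes have few exons. Each has at most 4 exons, as do 29.4% of tested genes, and their median is 2 exons beside 8 in tested genes. Their median transcript length is 2107 bases (1237 to 4514) against 3115 in tested genes, with EGR3, FOSB, JUN and EGR1 above 3115. The GC content of the 10 genes, 52.8% to 64.9%, lies above the tested median of 47.9% for all of them. On GRCh38, by GENCODE 44, EGR1 (5:138465479-138469303) and DUSP1 (5:172768096-172771195) are on chromosome 5, and JUNB (19:12791486-12793315), IER2 (19:13150411-13154911) and FOSB (19:45467995-45475179) are on chromosome 19. JUN is at 1:58776845-58784048, IER3 at 6:30743199-30744548, EGR3 at 8:22687659-22693480, FOSL1 at 11:65892049-65900573 and FOS at 14:75278826-75282230. The tested genes within 1 Mb of each member had median log2 fold changes between -0.085 (JUN) and 0.18 (EGR3). Around EGR3, 12 of 26 neighbours were called higher and 1 lower, and around EGR1, 7 of 24 higher and 1 lower. Of all tested genes 13.7% were called higher and 13.0% lower. The part of these surroundings in the levels of the members was not tested. The annotation places genes on the opposite strand over EGR3, FOSB, JUNB, DUSP1, IER2 and IER3, and without the strand setting of the counting their reads may not be fully separated. ERCC1, over FOSB, had 893 to 1211 counts and a log2 fold change of 0.049 (limma-voom adjusted p = 0.554), and HOOK2, over JUNB, had 332 to 565 counts and fell by 0.25 on the log2 scale (adjusted p = 0.0448).

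The course of the members across libraries, taken as the mean of the 8 tested members' centred log2 CPM, was -0.32, -0.23 and -0.01 in WT and 0.18, 0.15 and 0.22 in KO. WT replicate 3 was nearest to the KO libraries, the library in which FOS was highest among WT. Outside the lists, the genes most like this course by Pearson r over 6 libraries were NDUFA11 (0.995), a subunit of respiratory complex I, PTPMT1 (0.994), a mitochondrial phosphatase, and CDKN2D (0.990), an inhibitor of CDK4 and CDK6. A correlation over 0.9 was reached by 622 of 15088 tested genes (4.12%), and the points share the split between genotypes.

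Of 40 other immediate early genes, 36 were tested, and 10 were higher (against 13.7% of all tested genes), 2 lower (against 13.0%) and 24 not called, with a median log2 fold change of 0.089. The 3 with the smallest adjusted p were IER5 (0.35, limma-voom adjusted p = 7.20e-04), which binds phosphatase PP2A, ID2 (0.31, 8.12e-04), a dominant negative partner of basic helix-loop-helix factors, and TRIB1 (-0.36, 0.00266), a pseudokinase. IER5 was at 39.4, 39.1 and 39.7 CPM in WT and 48.5, 50.5 and 51.7 CPM in KO. The other one that fell was MYC, the growth-promoting transcription factor, at 131, 107 and 118 CPM in WT and 105, 92.7 and 93.2 CPM in KO (log2 fold change -0.31, limma-voom adjusted p = 0.0119). MYC and the following were named after their values were seen. ARC, a synaptic cytoskeletal protein that entered the test through its 3 KO libraries alone, was at 0.641, 0.536 and 0.590 CPM in WT and 1.03, 1.36 and 1.64 CPM in KO (log2 fold change 1.01, limma-voom adjusted p = 0.0113). PLK2, a kinase of the polo family, had a log2 fold change of 0.93 (adjusted p = 0.00283), and GADD45B, a stress sensor upstream of p38 and JNK, one of 0.83 (adjusted p = 0.00495).

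Kinases and promoter-bound factors upstream of these genes showed no common direction. All 34 were tested, 5 were higher and 4 lower, shares near those of all tested genes (13.7% and 13.0%), and the median log2 fold change was 0.00083. MRTFA and MRTFB, the actin-regulated partners of SRF, fell by 0.45 and 0.37 on the log2 scale (limma-voom adjusted p = 5.40e-04 and 7.31e-04). MRTFA lies on chromosome 22, where the median over 375 tested genes was -0.34, and MRTFB lies on chromosome 16 among 15 tested neighbours with a median of -0.41, so the genes around both were lower as well.

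Feedback inhibitors were tested for 15 of 17 genes, with 4 higher, 2 lower, 9 not called and a median log2 fold change of 0.049, where 13.7% and 13.0% of all tested genes were higher and lower. SPRY2, an inhibitor of RAS to ERK signalling downstream of growth factor receptors, was at 11.5, 11.7 and 12.8 CPM in WT and 19.5, 17.8 and 18.7 CPM in KO, a log2 fold change of 0.65 (limma-voom adjusted p = 2.04e-04). SPRED3, a relative, rose by 0.73 (0.00839), and DUSP2, a nuclear phosphatase for MAP kinases like DUSP1, fell by 1.03 (0.00238) on the log2 scale. Of 25 targets of AP-1, EGR1 and ERK-driven ETS factors, 11 were tested, and 3 were higher (against 13.7%), 1, PHLDA1 (named after its values were seen), lower (against 13.0%) and 7 not called, with a median of 0.043. The growth factor TGFB1 was at 12.3, 13.5 and 13.7 CPM in WT and 17.9, 18.1 and 19.7 CPM in KO, a log2 fold change of 0.51 (limma-voom adjusted p = 0.00158). The receptor kinase EPHA2 had 0.33 (0.0171). HMOX1, heme oxygenase, had 0.28 (0.00791), among 8 tested neighbours on chromosome 22 whose median was -0.44. Of 10 proteins that bind AU-rich and related decay elements, 1 was higher, RC3H1 (0.18, limma-voom adjusted p = 0.00805), against 13.7% of all tested genes. RC3H2 (0.12, 0.0517) was called with the replicate block. That fit gave 2 calls, both higher, where 18.4% of all tested genes were called higher. KHSRP was not called, and the median of the list was 0.058.

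**Figure D4:**
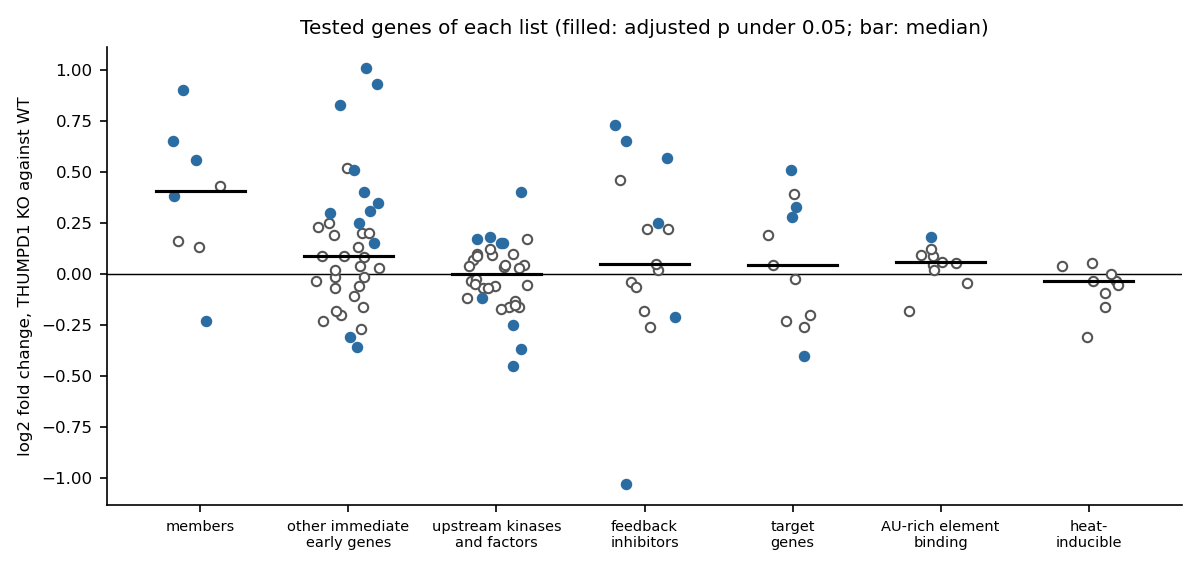
Log2 fold change of THUMPD1 KO against WT (vertical axis) for the tested genes of each list (columns), filled where the adjusted p was under 0.05, with a bar at the median. The members have a median of 0.41, and the medians of the other 6 lists lie between -0.036 and 0.089.

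Heat-inducible chaperones, which respond to how cells are handled before lysis, set the replicate 1 libraries apart. Of 9 tested, 0 passed in limma-voom (0 at an unadjusted p under 0.05, 0 in edgeR and 0 in DESeq2), where 26.7% of all tested genes passed in limma-voom. Their median log2 fold change was -0.036. With the replicate block 2 passed, both lower in KO, where 35.1% of all tested genes were called. Of the 10 listed genes, 9 were lowest in replicate 1 among the WT libraries and 8 in replicate 1 among the KO libraries. HSPA1B, named after its values were seen and nearly identical to HSPA1A, was at 362, 887 and 900.3 CPM in WT and 407, 562 and 631 CPM in KO. The smallest adjusted p-values of the list in limma-voom were 0.255 for HSPB1 (log2 fold change -0.16), 0.409 for HSPE1 (-0.092) and 0.443 for HSPD1 (-0.054). Among the members, JUN and FOSB were highest in replicate 1 of both genotypes. IER3, EGR3 (11 to 45 counts per library) and FOSL1 (10 to 16 counts) were lowest in replicate 1 of both. The part of handling in these values was not tested. The CPM summed over all 10 members was 215.6, 197.4 and 204.2 in WT and 212.3, 186.0 and 197.1 in KO, with overlapping ranges. Most of that sum was JUN, the single member that fell. The CPM summed over the 9 members without JUN was 47.6, 48.4 and 49.3 in WT and 62.1, 59.6 and 63.2 in KO. Without both replicate 1 libraries, EGR1 (log2 fold change 0.61, limma-voom adjusted p = 0.0153), DUSP1 (0.55, 6.27e-04) and JUN (-0.26, 0.00153) passed, and FOS (0.59, 0.191) and JUNB (0.29, 0.0603) did not. In that same fit 4 of the 9 heat-inducible genes were called, all lower in KO, where 32.4% of all tested genes were called. Without WT replicate 1 alone 3 of them were called, again all lower in KO, where 28.1% of all tested genes were.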

How the data were processed

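HEK-293T RNA was extracted in Trizol and, after removal of ribosomal RNA, sequenced from both ends of stranded total RNA libraries. The authors aligned the reads to GRCh38 with STAR and deposited RSEM expected counts per gene, which are not scaled between libraries. Tool versions and the strand setting of the counting are not given in the sources used here. CPM values were computed from library totals. The filter of 1 CPM, required here in 3 or more of the 6 libraries, and the fit follow the methods of the study. Genes were fitted with limma-voom after quantile normalization, with genotype as the single term (limma 3.58.1, R 4.3.3). P-values were two-sided and Benjamini-Hochberg adjusted over 15088 genes, with a threshold of 0.05. Counts were rounded for edgeR 4.0.16 and DESeq2 1.42.0. The main fit, edgeR, DESeq2 and the fits with the replicate block, GC and length trends removed, sample weights or TMM scaling were tested on simulated counts. The other alternative fits, that with no CPM filter included, were not. Gene positions, lengths and GC content came from GENCODE 44, in which 58472 of 58870 Ensembl IDs were found, and promoters from RefSeq.

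Same-numbered WT and KO libraries deviated together from their group means (r = 0.219, 0.161 and 0.127 over 12957 genes with a mean count of at least 100, against -0.173 to 0.0763 for different numbers), so the numbers were taken as pairs in an alternative fit with a replicate block. Other alternatives changed the scaling, the filter, the tool or the sample weights, removed GC and length trends or left out a library, and the one without both replicate 1 libraries was chosen after seeing the data. Named genes were the members, THUMPD1, the 3 tested genes with the smallest adjusted p in each list, and the 3 outside the lists most correlated with the members. Some items that the rule or a list names are not reported here. The members and lists were chosen with earlier results of these data known.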

Additional observations from a re-analysis of the deposited data

How the results depend on the processing

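The lower THUMPD1 and the calls of EGR1 and DUSP1 held in all 17 alternative fits, as did the direction of every tested member except IER3, which was -0.062 when WT replicate 1 was left out and 0.33 when WT replicate 3 was. For FOS, FOSB, JUN and JUNB the call depended on the setting, and their depth of 21 to 309 counts per library (JUN excepted) limits them. Of the members, 3 were called with no CPM filter (of 10 tested, where 10.1% of all genes were called), and 2 to 4 of 8 when libraries were left out (where 17.65% to 32.4% were). Against 9 upstream genes, sample quality weights called 15, removal of GC and length trends with the replicate block called 14, and leaving out libraries 4 (without WT replicate 3) to 10. Targets went from 4 to 7 with GC and length trends removed and the replicate block, and to between 3 and 6 with libraries left out. AU-rich element binding proteins went from 1 to 3 with quality weights, to 2 with the replicate block, with GC and length trends removed and with both, and to between 1 and 2 with libraries left out. Heat-inducible genes went from 0 to 2 with quality weights, to 2 with the replicate block, to 1 with GC and length trends removed, to 2 with both, and to between 0 and 4 with libraries left out. All of these heat-inducible calls were lower in KO, and the 4 came without both replicate 1 libraries. The share of all tested genes called was 26.7% in the main fit and 36.5% with quality weights. It was 35.1% with the replicate block, 29.3% with GC and length trends removed and 36.9% with both. With libraries left out it was 17.65% to 32.4%. The cause of the shifts in these lists was not tested. The counts for other immediate early genes and feedback inhibitors stayed within 1.5 times their value in all 17. Among the members, the replicate block changed the call of FOSB (adjusted p = 0.0471 in limma) and no other. The median log2 fold change of all tested genes lay between 0.0043 and 0.03 across the alternatives.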

Other observations

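ID1 and ID3 encode immediate early inhibitors of basic helix-loop-helix factors. ID1 was at 15.5, 14.1 and 13.7 CPM in WT and 18.4, 16.4 and 18.3 CPM in KO (log2 fold change 0.30, limma-voom adjusted p = 0.00914) and ID3 was at 30.8, 31.7 and 29.4 CPM in WT and 38.3, 34.5 and 36.2 CPM in KO (0.25, 0.0075). CCN1, a matricellular protein, was at 6.43, 7.28 and 7.002 CPM in WT and 9.88, 10.5 and 9.15 CPM in KO (0.51, limma-voom adjusted p = 0.00523), and its relative CCN2 had a log2 fold change of 0.52 (0.0501). HRAS was at 26.4, 25.9 and 27.1 CPM in WT and 36.9, 31.5 and 36.0 CPM in KO (0.40, limma-voom adjusted p = 0.00136). ETV5, an ETS factor driven by ERK and below the CPM filter, was at 0.332, 0.306 and 0.241 CPM in WT and 0.669, 0.658 and 0.8999 CPM in KO (1.15, adjusted p = 0.0299 in the limma-voom fit with no CPM filter). These genes were named after their values were seen.

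Of 10872 tested genes with a RefSeq promoter, 14.3% were called higher in KO, and of the 1561 whose window holds TGACGT on either strand, 15% were, with median log2 fold changes of 0.015 and 0.025. Among the 163 with a CArG box 10.4% were called higher.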
